A study of Mus musculus with 119 samples.

Results

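RSKi47 inhibits RSK1 and RSK2, and the comparison described here sets WT bone marrow-derived macrophages (BMDMs) given this inhibitor, with no LPS, against WT BMDMs that received neither inhibitor nor LPS. The 10 libraries, from a series of 15 RSKi47 libraries and 104 others, were taken by their titles: 4 of cells exposed to 2 µM RSKi47 for 10 min (replicates 1 to 4) and 6 of untreated cells (replicates 4 to 9). All were of the strain C57BL/6(NIMR) and had been grown from femoral bone marrow for 7 days with L-cell conditioned medium, then rested overnight in 1% FBS, and the ages of the mice are not given in the labels. The RSKi47 libraries belong to the RSK inhibitor experiment and the untreated ones to the TPL-2 experiment, and no untreated or solvent-treated library of the former is among those analysed here, so that inhibitor and experiment cannot be told apart in any difference below. DMSO-treated WT cells without LPS (3 libraries, of the PD0325901 experiment) are given beside them. These differ from the untreated cells both in solvent and in experiment.

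RSK proteins are serine/threonine kinases that bind ERK kinases and are activated by them, and they phosphorylate transcription factors, translation factors and other targets. In macrophages LPS acts through TLR4 and the kinase TPL-2, encoded by *Map3k8*, to activate MEK, ERK and thereby RSK. Immediate early genes such as *Fos* and *Egr1* are induced within minutes of ERK activation. Without LPS this pathway has little activity in rested BMDMs.

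The study states a typical sequencing yield, but the read depth of each single library is unknown. The deposited values are log2 values that the authors had normalized, so a difference of 1 is 2-fold. The values of weakly expressed genes lie close together on this scale, and levels are not scaled by gene length, so they are compared between libraries and not between genes. All 10 libraries had high values of macrophage genes: *Lyz2* (lysozyme) lay between 17.94 and 18.36, *Csf1r* (the M-CSF receptor) between 14.81 and 15.36, and *Adgre1* (F4/80) between 14.53 and 15.22. *Cd3e* (T cells) and *Elane* (neutrophil precursors) were at -0.08 or less in each. RSKi47 replicates 1 to 3 differed from each other by a root mean square of 0.141 to 0.157 over the tested genes, and replicate 4 stood apart from them by 0.232 to 0.248. The untreated libraries also fell into sets, with distances of 0.120 to 0.153 among replicates 4 to 6, 0.159 to 0.242 among replicates 7 to 9, and 0.207 to 0.255 between the sets. RSKi47 and untreated libraries were 0.329 to 0.439 apart, RSKi47 and DMSO libraries 0.307 to 0.424, and DMSO and untreated libraries 0.227 to 0.295. Every RSKi47 library was thus farther from each untreated library than any 2 libraries of the same group were from each other.

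A gene was called where limma's adjusted p was below 0.05 and the difference at least 1. Of 11971 genes tested, 161 were called (1.34%), of which 42 were lower (0.351%) and the rest higher (0.994%) in RSKi47-treated cells. At the edge of the rule lay *Ifit1bl1* inside, with a difference of 1.00, and *Hist1h1c* outside, with a difference of -0.997. The study's methods call the libraries biological replicates, and the labels do not say whether they came from separate cultures or mice. The p-values rest on the spread between libraries of the same group, pooled over all groups of the series, and not on the 10 libraries compared alone. On the adjusted p alone, 3205 genes were higher (26.8%) and 3145 lower (26.3%), and the median difference over all genes was 0.01, so most differences that passed were smaller than 2-fold. The 4 RSKi47 values lay wholly above or below the 6 untreated values in 152 of the called genes and in 4605 of all tested genes (38.5%). In the same fit, DMSO-treated cells differed from untreated cells in 46 genes (0.384%), 34 of them higher, and cells given PD0325901 for 10 min in 55 (0.459%), 39 of them higher. These comparisons share the untreated libraries.

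Of the 161 genes, 133 were also called without RSKi47 replicate 4, 116 against untreated replicates 4 to 6 alone, 147 against replicates 7 to 9 alone, and 88 against the DMSO libraries, where 1.17% of all tested genes were called. In all 4 of these refits 68 were called, 56 of them higher and 12 lower. The filter on low values was passed only through RSKi47 libraries by 5 of the higher genes and by 27 of all tested genes. Replicate 4 had the highest RSKi47 value in 78 of the higher genes and the lowest in 26 of the 42 lower genes.

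Several of the genes with the largest differences have sequence in common with other loci, which bears on how a counting program divides reads, and a few of these sequences are shown first. *Mir6236* (chr9:110281287-110281409) is annotated as a miRNA gene, and its mature product lies at chr9:110281353-110281371 on the plus strand (RefSeq, GRCm38.p6), with the seed in capitals.
mmu-miR-6236: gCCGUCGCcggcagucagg
*Hnrnpa1* (chr15:103240432-103246692, plus strand) encodes an RNA-binding protein of the spliceosome machinery, and *Gm5643* (chrX:142297565-142298530, plus strand) is a processed pseudogene annotated by GENCODE on GRCm38 that matches its coding sequence at 941 of 960 bases when laid along it without gaps. In the window of coding bases 65 to 124, chosen because it holds the most differences past the start, the bases that differ are in capitals.
Hnrnpa1: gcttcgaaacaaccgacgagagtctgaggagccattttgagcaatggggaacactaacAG
Gm5643: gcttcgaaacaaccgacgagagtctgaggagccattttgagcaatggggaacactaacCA
*Rpl26* (chr11:68901583-68906989, plus strand), for a protein of the large ribosomal subunit, and the processed pseudogene *Gm15772* (chr5:3236431-3236868, plus strand) are identical at 433 of 435 coding bases, shown for bases 118 to 177.
Rpl26: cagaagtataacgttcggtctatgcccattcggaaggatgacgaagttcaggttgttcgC
Gm15772: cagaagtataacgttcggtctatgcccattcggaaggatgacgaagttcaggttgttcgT
*Ndufs5* (chr4:123712710-123718202, minus strand), for an accessory subunit of respiratory complex I, and the processed pseudogene *BC002163* (chr16:42955631-42955949, plus strand) are identical at 316 of 318 coding bases, shown for 60 bases from base 46.
Ndufs5: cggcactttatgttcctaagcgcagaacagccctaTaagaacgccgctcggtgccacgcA
BC002163: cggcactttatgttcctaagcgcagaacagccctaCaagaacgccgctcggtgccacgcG

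The gene and its copy moved in opposite directions in the *Hnrnpa1* and *Ndufs5* pairs, and in the same direction in the *Rpl26* pair. *Hnrnpa1* was listed at 10.41, 10.13, 10.28 and 10.13 with RSKi47, against a lowest value of 11.40, a median of 11.58 and a highest of 11.70 in untreated cells, a difference of -1.34 (SE 0.07, limma adjusted p = 2.62e-32). *Gm5643* was listed at 10.45, 10.53, 10.36 and 10.09, against 3.96, 4.84 and 6.17, a difference of 5.44 (SE 0.35, adjusted p = 6.45e-25). Neither gene's groups overlapped. *Ndufs5* was at 6.00, 6.01, 6.04 and 6.07 with RSKi47 and at 8.61, 8.83 and 9.22 (lowest, median, highest) in untreated cells, a difference of -2.86 (SE 0.16, adjusted p = 1.09e-29). Its copy *BC002163* was 0.84 higher (SE 0.27, adjusted p = 0.00654), short of the 2-fold threshold. *Rpl26* was at 5.46, 5.46, 5.50 and 5.53, against 7.42, 7.74 and 8.37, a difference of -2.34 (SE 0.28, adjusted p = 1.46e-11), and its copy *Gm15772* differed by -0.27 (SE 0.05, adjusted p = 3.05e-07). *Hnrnpa1*, *Gm15772* and *BC002163* are outside the rule for named genes and were chosen after their values were seen. *Pira7*, a member of the paired immunoglobulin-like receptor family, had a similarly tight set of values, 5.54, 5.55, 5.59 and 5.61, against 7.32, 7.84 and 8.36, a difference of -2.26 (SE 0.26). The RSKi47 values of *Ndufs5*, *Rpl26* and *Pira7* spanned 0.06, 0.07 and 0.07. These levels are uncertain, since reads that fit several loci may be assigned to any of them.

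Sequence shared with another locus was commoner among lower than among higher called genes. At least 25% of the 31-base stretches of the main transcript were found in a transcript of another locus in 11 of the 40 lower genes that had a transcript (27.5%) and in 6 of the 117 higher genes (5.13%), compared with 754 of 11890 tested genes (6.34%). The share among all tested genes with a difference below 0 was 8.75%, and above 0 it was 4.02%. *Hist1h2ap* (chr13:21810367-21810918), which encodes histone H2A, shares 93.4% of its stretches with other loci. It rose from a median of 3.04 (2.34 to 4.18) to 9.06, 8.96, 8.95 and 8.62, a difference of 5.81 (SE 0.25, adjusted p = 3.06e-37). *Akr1b3* (63.5%), for aldose reductase, fell by 2.17 (SE 0.19), with RSKi47 values of 6.51, 7.97, 6.55 and 7.68 all below the untreated values of 8.94 to 9.83. *Rpl37rt* (51.7%) and *Rpl34* (48%), of the ribosomal protein families, fell by 1.65 and 1.64 (-0.79, not called, and -1.61 against the DMSO libraries), and *Atp6v0c* (35.2%), a proton channel subunit of the vacuolar ATPase, by 1.55. *Pira4* and *Pira7* belong to a multigene family and had no matched transcript, so their share was not measured and their levels are also uncertain. *Pira4* varied widely among the RSKi47 libraries, at 8.86, 4.63, 4.30 and 9.06, against 1.44 to 1.67 in untreated cells (difference 5.12, SE 0.48).

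Both RNAs of the ribosomal and small RNA list that were called are shown with their values in every RSKi47 library. *Mir6236* was at 7.21, 8.17, 9.80 and 10.89 with RSKi47 and at 2.30, 2.69 and 3.20 (lowest, median, highest) without, a difference of 6.31 (SE 0.25, adjusted p = 9.66e-41). *Rn45s*, the precursor of ribosomal RNA, was at 18.06, 18.27, 18.95 and 19.25 against 15.19, 15.27 and 15.78, a difference of 3.28 (SE 0.75, adjusted p = 0.000126). Replicate 4 was the highest RSKi47 library for both genes, and the groups did not overlap in either. *Rn45s* also varied within the DMSO group, which had values of 13.94, 14.61 and 17.88. *Lars2*, the other gene of that list that was tested, differed by 0.17. Summed on the linear scale, the 6 members in the file came to 57520 to 79612 in untreated and 288543 to 661269 in RSKi47-treated libraries. How far these reads bear on the values of other genes was not tested.

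**Figure D1:**
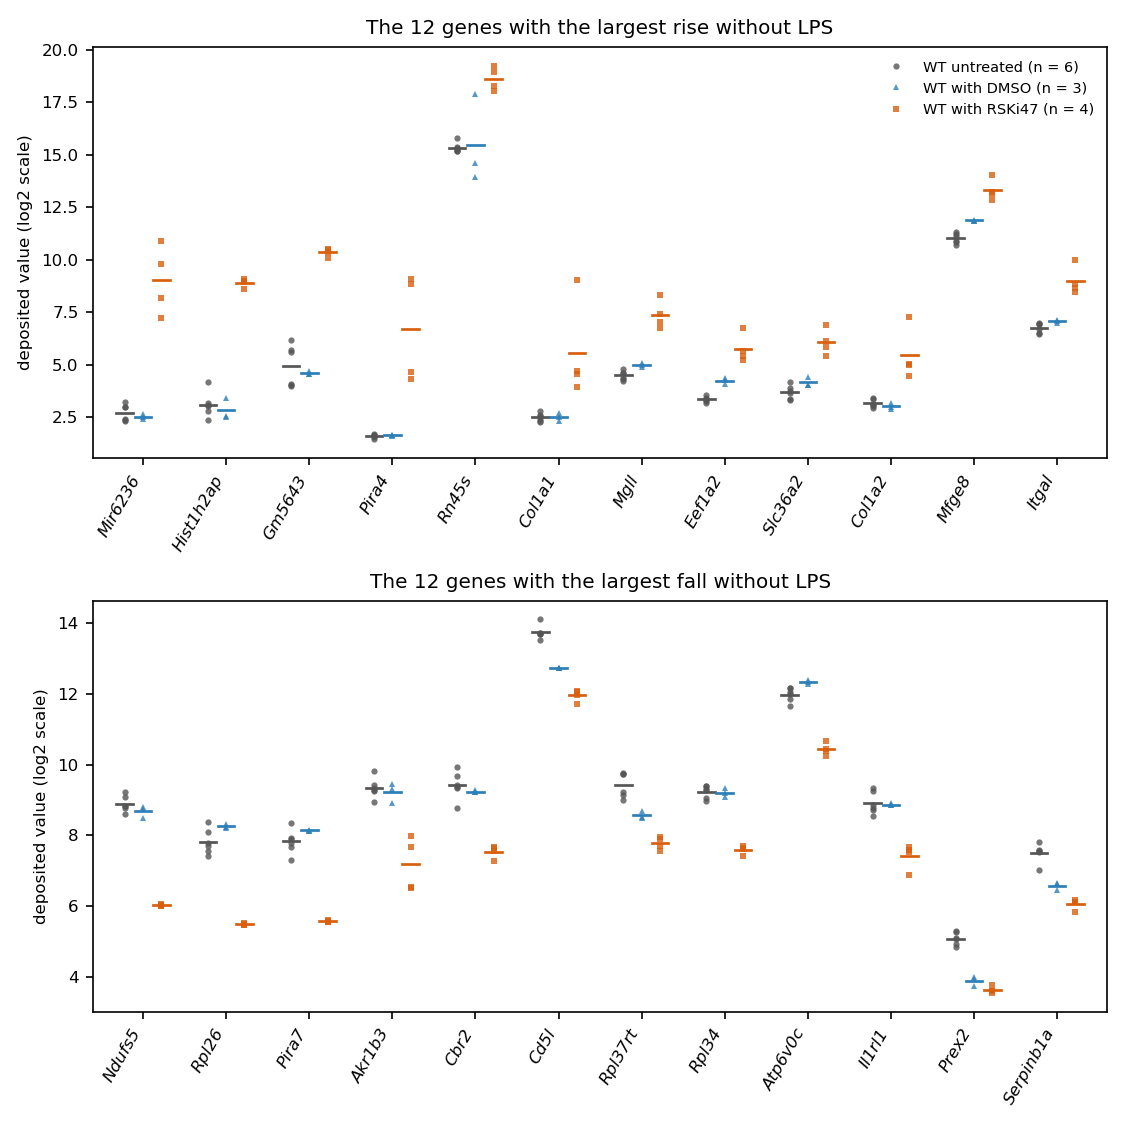
Deposited log2 values of the 12 genes with the largest rise (top) and the 12 with the largest fall (bottom) among called genes whose RSKi47 and untreated values do not overlap. Points are libraries (grey untreated, n = 6; blue DMSO, n = 3; orange RSKi47, n = 4) and bars are group means. *Col1a1* has 1 RSKi47 library, replicate 4, far above the others (9.03), and *Ndufs5*, *Rpl26* and *Pira7* have RSKi47 values within 0.07 of each other.

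Outside those genes, most of the leading rises were in genes with little or no shared sequence. *Mgll* (chr6:88724412-88828360), for monoacylglycerol lipase, was at 7.02, 7.41, 6.76 and 8.30 with RSKi47 against 4.22, 4.48 and 4.78 (lowest, median, highest), a difference of 2.89 (SE 0.19, adjusted p = 7.44e-24). *Mfge8* (chr7:79133768-79149060), which encodes a bridging protein for the uptake of apoptotic cells, was at 12.86, 13.21, 13.13 and 14.01 against 10.69, 11.02 and 11.34, a difference of 2.28 (SE 0.15, adjusted p = 1.77e-24). *Itgal*, the αL chain of the integrin LFA-1, rose by 2.24 (SE 0.28), *Slc36a2*, a proton-coupled amino acid transporter, by 2.39 (SE 0.27), and *Eef1a2*, a translation elongation factor isoform, by 2.41 (SE 0.18). In each of these genes replicate 4 was the highest RSKi47 library, and all 4 were above every untreated library. *Mgll*, *Mfge8*, *Eef1a2*, *Itgal* and *Slc36a2* were also called without that replicate and against the DMSO libraries. DMSO-treated cells had 0.86 more *Mfge8* and 0.89 more *Eef1a2* than untreated cells.

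Of the 14 genes of the fibroblast and stromal list, 6 passed the filter on low values. *Col1a1* and *Postn* did so only through RSKi47 libraries, so no share or median of the list is set against all genes. *Col1a1*, *Col1a2* and *Postn* were called, and *Pdgfrb* (0.50), *Acta2* (0.59) and *Tagln* (0.42) stayed below the 2-fold threshold. *Col1a1* (chr11:94936224-94953042), the α1 chain of type I collagen, was at 4.69, 4.54, 3.93 and 9.03 against 2.25, 2.46 and 2.78, a difference of 3.06 (SE 0.31, adjusted p = 2.72e-14). *Col1a2*, the α2 chain, was at 5.05, 5.0, 4.46 and 7.28 against 2.92, 3.08 and 3.43 (difference 2.30, SE 0.27), and *Postn* (periostin) at 3.27, 3.75, 3.35 and 4.10 against 1.82, 1.85 and 1.91 (difference 1.76, SE 0.13). Replicate 4 was highest in each, and without it the differences were 1.90, 1.69 and 1.60, all called. The linear sum over the 14 genes of the list was 74 to 87 in untreated and 135 to 782 in RSKi47-treated libraries. The highest sum was that of replicate 4 and came mostly from *Col1a1* (9.03) and *Col1a2* (7.28). The defining markers *Pdgfra*, *Dcn*, *Lum* and *Thy1* were at or below -0.39 in all 10 libraries, near the floor of the scale.

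*Fn1*, *Lox*, *Vcam1*, *Sparc*, *Bgn* and *Cspg4*, whose products belong to the matrix or to cell adhesion, were named after their values were seen and were called higher. *Fn1* (fibronectin) was at 8.27, 8.96, 8.76 and 9.33 against 6.34, 6.50 and 8.24, so that the lowest RSKi47 value was only just above the highest untreated one (difference 1.88, SE 0.36, adjusted p = 4.44e-06). *Lox*, which crosslinks collagen, was at 6.11, 6.39, 6.17 and 6.45 against 4.22, 4.58 and 4.75, a difference of 1.76 (SE 0.14, adjusted p = 3.86e-20). *Vcam1*, a ligand of the integrin VLA-4, was at 7.51, 8.28, 7.29 and 8.38 against 5.54, 5.62 and 5.82, a difference of 2.20 (SE 0.17, adjusted p = 1.15e-20). *Sparc* (1.60), *Bgn* (1.25) and *Cspg4* (2.05), which encode osteonectin and a pair of proteoglycans, also rose. In DMSO-treated cells the differences from untreated cells were 0.52 for *Fn1*, 0.07 for *Lox*, 0.77 for *Vcam1*, -0.07 for *Sparc* and *Bgn*, and 0.97 for *Cspg4*. *Ctgf*, a matricellular growth factor and target of SRF and YAP, rose by 1.61 (SE 0.19), from a median of 2.71 to 4.37, 4.38, 4.11 and 4.54. It was the only called gene among 38 tested immediate early genes and the only one among 15 SRF cytoskeletal targets (background 0.994% higher). On the adjusted p alone 9 of the SRF targets were higher and 5 lower (backgrounds 26.8% and 26.3%).

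MHC class II genes rose by about 2-fold, with untreated libraries split by set. *H2-Aa*, *H2-Ab1* and *H2-Eb1* encode the chains that present peptides, and *Cd74* the invariant chain. *H2-Aa* was at 10.79, 11.02, 11.06 and 10.40 with RSKi47, at 9.94, 10.21 and 10.35 in untreated replicates 4 to 6, and at 9.0, 8.82 and 8.88 in replicates 7 to 9, a difference of 1.28 (SE 0.29, adjusted p = 9.52e-05) over all 6. *H2-Ab1* differed by 1.12, *H2-Eb1* by 1.19 and *Cd74* by 1.07. Against replicates 4 to 6 alone these 4 differences were 0.65, 0.41, 0.62 and 0.50, with adjusted p of 0.0841, 0.321, 0.0633 and 0.159, and none was called. *Cd74* was at 13.16, 13.36, 13.46 and 12.77, and *H2-Ab1* at 10.60, 10.87, 10.98 and 10.42. In these genes and in *H2-Eb1* the value of replicate 4 lay within the untreated range. They are the 4 called members of the dendritic cell list (background 0.994%), of which 11 were tested and 8 were higher on the adjusted p alone (background 26.8%), with a median of 0.89, which was 0.41 against replicates 4 to 6 and 0.99 against replicates 7 to 9. *Ciita*, the activator of MHC class II genes, differed by 0.90 (SE 0.26, adjusted p = 0.00204), short of the threshold. Among dendritic cell markers, *Flt3* was at 1.43 or less and *Zbtb46* at 3.12 or less in each library. *Itgax* (0.79 to 0.99) and *Ccr7* (0.33 to 0.44) were higher without replicate 4 and with each other control, with adjusted p below 0.05. In the same refits *Batf3* was lower (-0.36 to -0.59, adjusted p below 0.05). *Xcr1* was higher (0.39 to 0.44) except against DMSO (0.26, adjusted p = 0.134). These 4 were named after their values were seen. The linear sum over the list was 9654 to 19339 in untreated and 19957 to 25849 in RSKi47-treated libraries.

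Some interferon-stimulated and neutrophil granule genes rose with RSKi47, and the values of those called were near or above the RSKi47 values in DMSO-treated cells. Of 38 interferon-stimulated genes tested, 3 were called higher (background 0.994%), 20 were higher and 1 lower on the adjusted p alone (backgrounds 26.8% and 26.3%), differences ran from -0.58 to 1.12 and the median was 0.48. The median against untreated cells was 0.77 for DMSO and 0.86 for PD0325901, in comparisons that share those libraries. *Oas3*, an RNA sensor that activates RNase L, was at 12.75, 12.75, 12.89 and 11.99 against 11.25, 11.43 and 11.78 (difference 1.12, SE 0.19), and 12.53 to 12.55 with DMSO. *Ifit2* was at 12.82, 12.95, 13.18 and 11.46 against 11.20, 11.55 and 11.91, where replicate 4 lay within the untreated range, and 12.92 to 13.05 with DMSO. *Gbp3*, a guanylate-binding GTPase, was at 9.43, 9.55, 9.71 and 8.96 against 7.84, 8.56 and 8.68 (difference 1.01). Replicate 4 was the lowest RSKi47 library in all 3 genes, and without it 7 genes of the list were called (background 0.977%) and the median was 0.73. With DMSO as the control none was called: *Ifit2* differed by -0.39, *Oas3* by 0.06 and *Gbp3* by 0.09. Of 11 neutrophil granule genes tested, *Ltf* (lactoferrin) and *Ngp* were called, each by 1.20 (background 0.994%), with a median of 0.63 for the list. On the adjusted p alone 6 were higher, and *Mmp9*, a matrix metalloprotease, was lower by a difference of -0.94. Against untreated replicates 4 to 6 there were 5 calls higher (background 0.877%) and a median of 0.90. Against replicates 7 to 9 no member was called higher (background 1.19%; *Ltf* 0.92, *Ngp* 0.84), *Mmp9* was called lower (-1.32) and the median was 0.26. *Ltf* was at 4.96, 4.98, 5.07 and 5.18 against 3.53, 3.71 and 4.33, and *Ngp* at 5.51, 5.24, 5.39 and 5.38 against 3.75, 4.10 and 4.70, with no overlap in either. In DMSO-treated cells *Ltf* was 1.56 and *Ngp* 1.41 higher than in untreated cells, and the RSKi47 cells differed from the DMSO cells by -0.36 and -0.21. Their linear sum ranged from 715 to 1345 in untreated and from 1237 to 1668 in RSKi47-treated libraries, while the neutrophil markers *Elane*, *Mpo* and *Ly6g* were at 0.87 or less throughout.

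**Figure D2:**
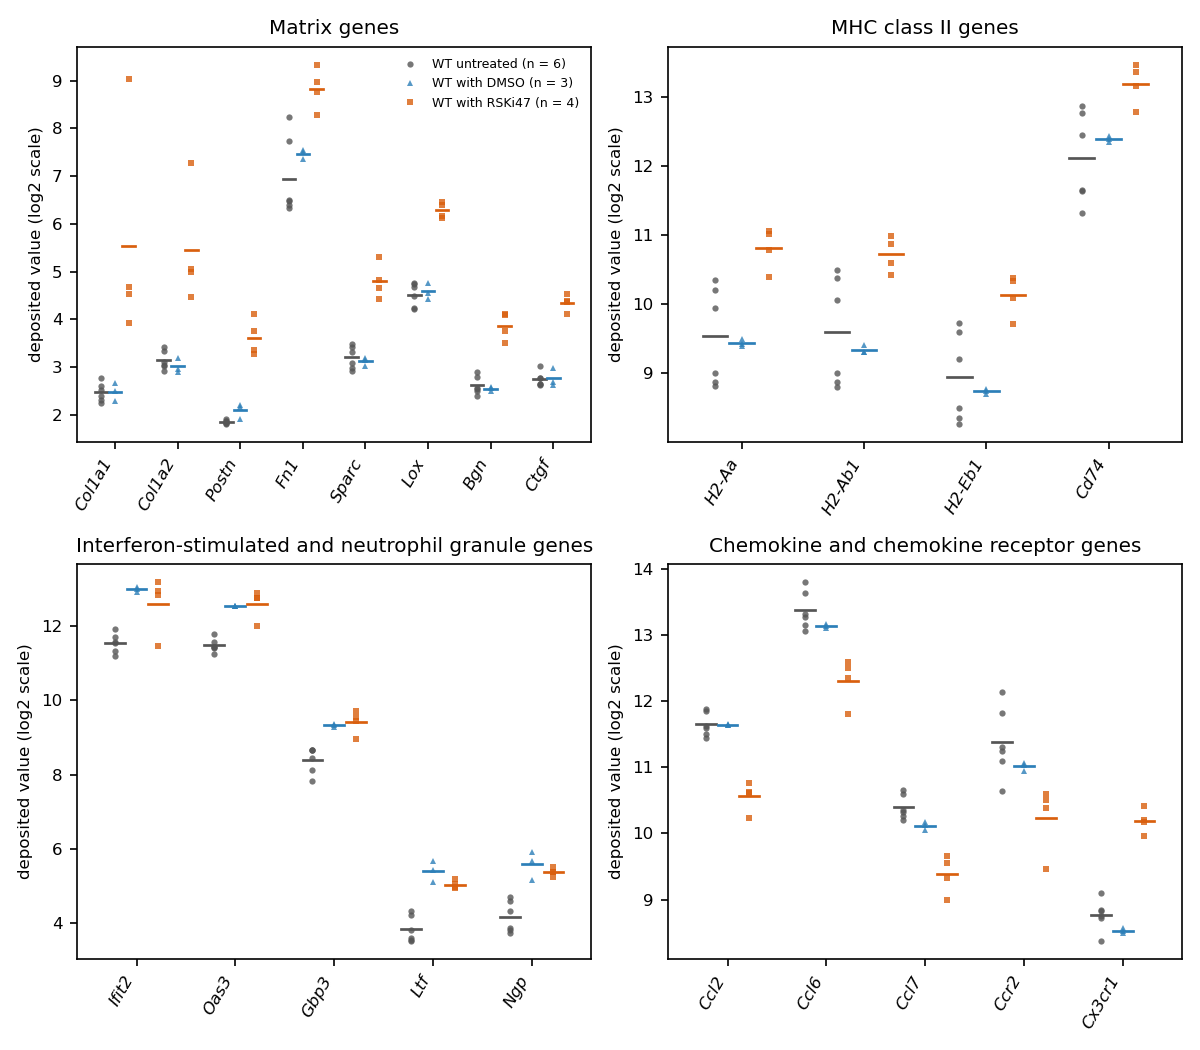
Deposited log2 values of matrix, MHC class II, interferon-stimulated and neutrophil granule, and chemokine and chemokine receptor genes. Points are libraries and bars group means, coloured as grey for untreated (n = 6), blue for DMSO (n = 3) and orange for RSKi47 (n = 4). DMSO values sit with the untreated ones for matrix and MHC class II genes other than *Cd74* and *Fn1*, and near the RSKi47 ones for *Ifit2*, *Oas3*, *Gbp3*, *Ltf* and *Ngp*.

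Among the 33 inflammatory cytokines and chemokines tested, the 3 called were chemokines that fell (background 0.351% lower), and the list's median was 0.09. On the adjusted p alone 5 members were higher and 5 lower (backgrounds 26.8% and 26.3%). *Ccl2* (chr11:82035577-82037452), which attracts monocytes through CCR2, was at 10.77, 10.63, 10.61 and 10.23 with RSKi47 against 11.44, 11.60 and 11.88 (lowest, median, highest), a difference of -1.09 (SE 0.11, adjusted p = 1.15e-14). *Ccl7* (chr11:82045712-82047525), its neighbour and a further CCR2 ligand, was at 9.66, 9.56, 9.33 and 9.0 against 10.21, 10.34 and 10.65, a difference of -1.01 (SE 0.13). *Ccl6*, a macrophage CC chemokine, was at 12.58, 12.35, 12.50 and 11.80 against 13.06, 13.29 and 13.80, a difference of -1.06 (SE 0.16). The groups did not overlap for any of them. Replicate 4 was lowest in each, and without it the differences were -0.98, -0.88 and -0.89, below the 2-fold threshold with adjusted p of 2.51e-11, 1.23e-07 and 6.85e-06. Against untreated replicates 4 to 6 they were also below it, at -0.95, -0.88 and -0.91, and against the DMSO libraries *Ccl2* was called at -1.08 while *Ccl7* (-0.73) and *Ccl6* (-0.82) were not. Without RSKi47 replicate 4, *Cxcl10* was the only member called, and it was higher (1.06, adjusted p = 6.37e-05, background 0.977%). *Cxcl10* was not called against replicates 4 to 6 (0.80), replicates 7 to 9 (0.92) or DMSO (-0.04). *Tnf* differed by 0.03 (95% interval -0.14 to 0.21), *Il1b* by 0.03 (-0.27 to 0.33) and *Cxcl2* by 0.11 (-0.08 to 0.30).

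Of 29 macrophage identity genes tested, 7 were higher and 13 lower on the adjusted p alone (backgrounds 26.8% and 26.3%), 1 was called in each direction (backgrounds 0.994% and 0.351%), and the median was -0.08. *Cx3cr1*, the fractalkine receptor, rose by 1.42 (SE 0.20, adjusted p = 2.01e-09), to 9.96, 10.21, 10.17 and 10.42 from 8.38, 8.80 and 9.10. *Ccr2*, the receptor for *Ccl2* and *Ccl7* products, fell by 1.14 (SE 0.25, adjusted p = 5.71e-05), to 10.51, 10.38, 10.59 and 9.46 from 10.64, 11.28 and 12.14, and it did not pass the 2-fold threshold without replicate 4 (-0.88), against replicates 4 to 6 (-0.76) or against the DMSO libraries (-0.78). *Csf1r* differed by 0.30, *Adgre1* by -0.36 and *Cd14*, the LPS co-receptor, by -0.39, each with an adjusted p below 0.05. *Cd68* differed by 0.06 (95% interval -0.04 to 0.17). *Cd5l*, a scavenger receptor-related protein secreted by tissue macrophages, fell by 1.79 (SE 0.17), to 12.06, 12.09, 11.98 and 11.73 from 13.53, 13.72 and 14.11, and was at 12.73 to 12.74 with DMSO. *Cbr2* (carbonyl reductase) fell by 1.88 (SE 0.16), *Il1rl1* (the IL-33 receptor ST2) by 1.5 (SE 0.15), *Prex2* (a Rac exchange factor) by 1.45 (SE 0.27) and *Serpinb1a* (a serine protease inhibitor) by 1.45 (SE 0.12). DMSO-treated cells had 1.19 less *Prex2* and 0.93 less *Serpinb1a* than untreated cells, and differed by -0.04 in *Il1rl1*. With DMSO as the control *Prex2* (-0.26, adjusted p = 0.54), *Serpinb1a* (-0.52) and *Cd5l* (-0.77) were not called, and *Il1rl1* (-1.46) and *Cbr2* (-1.70) were. The lectin genes *Clec10a* (-1.42) and *Mgl2* (-1.20) and the folate receptor gene *Folr2* (-1.01) were also lower, and were named after their values were seen. Against the DMSO libraries *Clec10a* was called (-1.06), and *Mgl2* (-0.30, adjusted p = 0.13) and *Folr2* (-0.27, adjusted p = 0.167) were not. *Folr2* was also short of the threshold without replicate 4 (-0.90) and against replicates 4 to 6 (-0.77). The *Mgl2* transcript shares 27% of its stretches with other loci.

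Of the genes of the pathway the inhibitor is directed at, some had mRNA values close to those of untreated cells and others differed slightly in either direction. None of 28 tested genes of the ERK and RSK pathway was called (background 1.34%). On the adjusted p alone 5 were higher and 7 lower (backgrounds 26.8% and 26.3%), and differences ran from -0.29 to 0.73 with a median of -0.01. *Braf*, a kinase that activates MEK, was 0.52 higher (SE 0.07, adjusted p = 2.51e-10), *Pdpk1*, which phosphorylates RSK, 0.25 (SE 0.05, adjusted p = 1.93e-05), and the SRF cofactor gene *Elk4* 0.73 (SE 0.09, adjusted p = 4.93e-11). These were named after their values were seen, and in the refits without replicate 4 and with the other controls each stayed higher with an adjusted p below 0.05. *Rps6* and *Ybx1*, named in the same way, were lower in each of these refits (-0.15 to -0.23, adjusted p below 0.05). *Map2k1* (MEK1) was lower in them (-0.13 to -0.19), except that it did not pass against replicates 4 to 6 (-0.11, adjusted p = 0.0674). *Rps6ka1* (RSK1) was at 11.30, 11.30, 11.35 and 11.31 with RSKi47 and between 11.24 and 11.33 without, a difference of 0.03 (95% interval -0.03 to 0.10). *Rps6ka3* (RSK2) differed by -0.08 (-0.23 to 0.07) and *Rps6ka2* (RSK3) by 0.13 (-0.02 to 0.29). *Rps6ka4* (MSK2) and *Rps6ka5* (MSK1), related kinases that phosphorylate chromatin, differed by -0.06 and 0.08, and *Rps6ka6* (RSK4) was near the floor at -2.19 to -2.18. *Mapk3* (ERK1) differed by -0.02, and the 95% interval for *Map3k8* was -0.15 to 0.14. An inhibitor of kinase activity need not change these mRNAs, so they do not check the treatment.

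Immediate early genes lie downstream of the pathway. Of 38 tested, *Ctgf* was the only one called (background 0.994% higher), 8 were higher and 11 lower on the adjusted p alone (backgrounds 26.8% and 26.3%, near these shares), and the median was -0.06. *Egr3*, a zinc finger transcription factor, was at 6.46, 6.25, 6.25 and 6.07 against 6.81, 6.96 and 7.20, a difference of -0.74 (SE 0.15, adjusted p = 1.81e-05). *Btg2*, an antiproliferative gene, differed by -0.30 (SE 0.08), *Ier2* by -0.26 (SE 0.09) and *Fos* by -0.33 (SE 0.12), each with an adjusted p below 0.05. *Fos* did not pass against untreated replicates 4 to 6 (-0.21, adjusted p = 0.216), *Ier2* without RSKi47 replicate 4 (-0.20, adjusted p = 0.0775), against replicates 7 to 9 (-0.24, adjusted p = 0.0541) or against DMSO (-0.02, adjusted p = 0.872), and *Btg2* against DMSO (-0.20, adjusted p = 0.061). *Egr2* differed by 0.34 (SE 0.13), and passed in none of the refits without replicate 4 or with the other controls (0.16 to 0.35, adjusted p = 0.0527 to 0.429). *Egr1* differed by 0.22 (95% interval -0.10 to 0.54), and by 0.49 (adjusted p = 0.00908) without RSKi47 replicate 4. *Nr4a1* differed by -0.39 (-0.79 to 0.01), *Fosb* by -0.04 (-0.29 to 0.22) and *Dusp1*, a phosphatase of MAP kinases, by -0.21 (-0.40 to -0.02, adjusted p = 0.0557), and by -0.28 (adjusted p = 0.032) against replicates 7 to 9 alone. DMSO-treated cells differed from untreated cells by -0.18 in *Egr3*, -0.24 in *Ier2* and -0.37 in *Dusp1*. No ERK feedback inhibitor (17 tested, median 0.07) and no NF-κB feedback gene (22 tested, median 0.04) was called (background 1.34%). On the adjusted p alone 7 of the ERK feedback inhibitors were higher and 2 lower, with differences from -0.72 to 0.49. Of the NF-κB feedback genes 5 were higher and 0 lower. *Dusp6* (-0.44 to -0.83) was lower and *Dusp4* (0.38 to 0.52) higher in each of the refits above, with adjusted p below 0.05. Both were named after their values were seen.

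**Figure D3:**
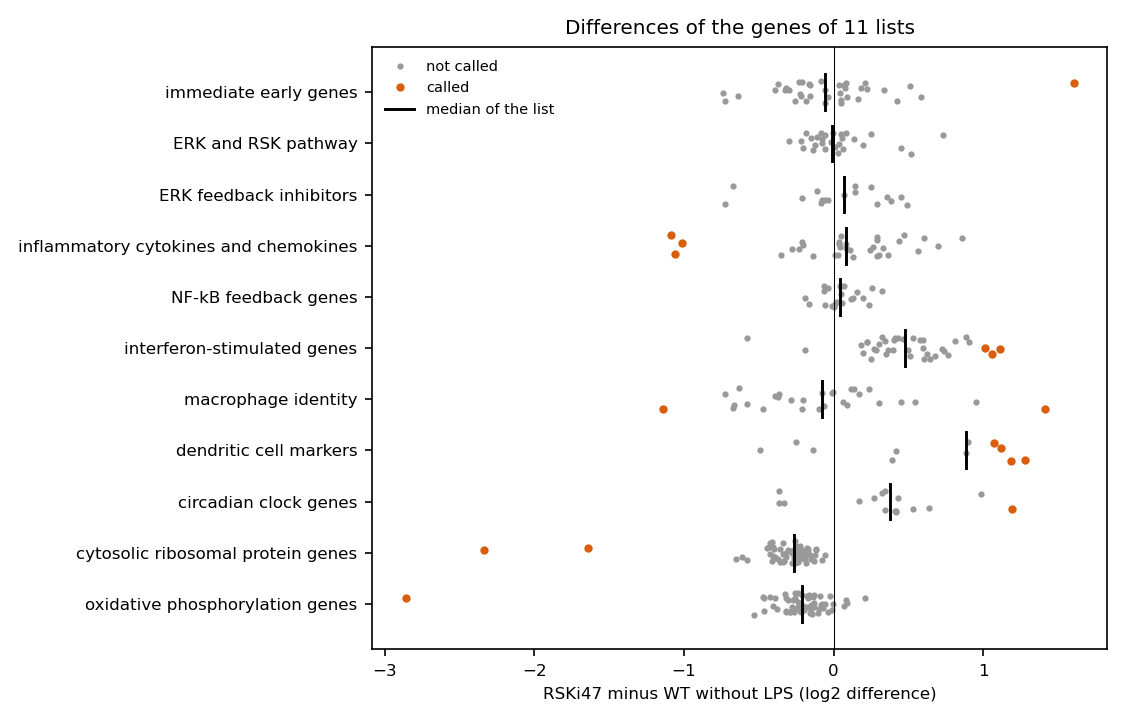
Difference between RSKi47-treated and untreated cells without LPS on the log2 scale for each tested gene of 11 lists. Orange points were called, grey ones were not, and black bars are list medians. Signalling and early gene lists centre near 0, interferon-stimulated and dendritic cell lists lie above it (medians 0.48 and 0.89), and ribosomal protein and oxidative phosphorylation lists just below it (-0.26 and -0.21).

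Genes of the translation and respiration machinery were slightly lower as lists. Of 65 cytosolic ribosomal protein genes, 59 were lower on the adjusted p alone and none higher (background 26.3% lower), with a median of -0.26, and *Rpl26* and *Rpl34* were called (background 0.351%). Of 58 oxidative phosphorylation genes, 45 were lower and 2 higher, with a median of -0.21, and *Ndufs5* was called (background 0.351%). Against the DMSO libraries the medians of these lists were -0.16 and -0.14. Histone genes (14 tested, 11 lower, median -0.32) and heat shock chaperones (15 tested, 9 lower, 1 higher, median -0.25) leaned the same way with no call. *Hist1h2ap* is not a member of the histone list, and against the DMSO libraries that list's median was -0.06. The median length of the main transcript was 886 bases in the ribosomal protein list and 823.5 in the oxidative phosphorylation list, beside 3088.5 over all tested genes. Across 11890 genes the difference had a Spearman correlation of 0.44 with transcript length and of -0.01 with GC content, and the correlation with length was 0.17 for DMSO and 0.10 for PD0325901 against the same untreated cells. It was 0.45 for RSKi47 replicates 1 to 3 against untreated cells and 0.34 for RSKi47 against DMSO. With the genes split by length into 3 equal parts, the median difference was -0.12 in the shortest, 0.01 in the middle and 0.13 in the longest, and genes called higher numbered 27, 33 and 57, and lower 24, 10 and 6. The part of transcript length in the list differences was not tested. The long nuclear RNAs *Malat1* and *Kcnq1ot1*, named after their values were seen, were 1.12 (SE 0.31) and 1.45 (SE 0.13) higher. *Malat1* lost its call against untreated replicates 7 to 9 (0.76, adjusted p = 0.0778).

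Of 16 circadian clock genes, 11 were higher and 3 lower on the adjusted p alone (backgrounds 26.8% and 26.3%), with a median of 0.38. *Bhlhe40*, a repressor in the clock, was called, at 9.94, 9.93, 9.88 and 10.34 against 8.49, 8.89 and 9.09 (difference 1.19, SE 0.09), and was 0.86 higher in DMSO-treated than in untreated cells, so that it differed from DMSO-treated cells by 0.33 and was not called. *Per2* was just under the threshold, at 6.13, 6.31, 6.31 and 6.40 against 5.13, 5.27 and 5.59 (difference 0.99, SE 0.10), and *Arntl* differed by -0.36. *Slc7a11*, the cystine transporter and a target of NRF2 and ATF4, rose by 1.84 (SE 0.23), to 7.36, 7.80, 7.51 and 8.73 from 5.45, 6.10 and 6.42, and was the only call among 19 NRF2 antioxidant genes (median 0.10) and among 21 integrated stress response genes (median 0.12), against a background of 0.994%. Of 27 cholesterol and LXR genes none was called against untreated cells (median -0.02), while 11 were called lower against the DMSO libraries (background 0.351%, median -0.91). DMSO-treated cells had a median difference of 0.76 from untreated cells in this list. *Scd1*, a fatty acid desaturase, was at 10.12, 9.22, 9.67 and 8.44 with RSKi47, between 9.88 and 10.67 in untreated cells and between 11.60 and 11.69 with DMSO. *Fdps*, of the mevalonate pathway, differed by -0.37 from untreated and by -1.67 from DMSO-treated cells. Both were named after their values were seen. No gene was called (background 1.34%) in the lists of glycolysis and hypoxia genes (28), cell cycle genes (36), Toll-like receptors and LPS co-receptors (23), growth factor and CREB targets (18), the Bcl2 family (16), Krüppel-like and Sp factors (12) or sex-linked genes (4), or among the few tested markers of B cells (2), T and NK cells (2), mast cells and basophils (1), erythroid cells and platelets (2), and glial and neural cells (5). On the adjusted p alone, 4 glycolysis and hypoxia genes were higher and 13 lower. Of the Toll-like receptors and LPS co-receptors 10 were higher and 6 lower.

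The same comparison in other libraries of both experiments shows which differences were also present with LPS. At 100 ng/ml LPS, RSKi47-treated and untreated WT cells differed in 155 genes after 0.5 h (1.29%), in 186 after 1 h (1.55%) and in 239 after 2 h (2.00%). Of the 161 genes, 112 were called in the same direction after 0.5 h, 121 after 1 h and 94 after 2 h, which is 69.6%, 75.2% and 58.4% of them and 72.3%, 65.1% and 39.3% of the genes called at those times. At all 3 times 69 were called, and 17 at none. The sign was the same for all 161 after 0.5 h, for 159 after 1 h and for 155 after 2 h. *Mgll* differed by 2.41, 3.01 and 2.74 at the 3 times, *Hist1h2ap* by 6.16, 4.98 and 6.11, *Hnrnpa1* by -1.36, -1.62 and -1.74, and *Ccl7* by -1.40, -1.74 and -1.37. For 30 of the 161 genes, all 15 RSKi47 libraries of the series lay beyond all 104 other libraries of every genotype and treatment. Of these genes, 22 were higher and 8 lower, and the share over all tested genes was 0.877%. The libraries by which the 161 genes were chosen are included here, which favours these genes, so nothing is read from the contrast with that share. The 15 libraries carry the same replicate numbers at successive times, and whether they are independent is not stated. *Mgll*, *Mfge8*, *Cx3cr1*, *Col1a2*, *Postn*, *Ndufs5* and *Cd5l* are among the 30, and *Postn* passed the filter on low values only through RSKi47 libraries.

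The test of the interaction called 1, 6 and 15 of the 161 genes at 0.5, 1 and 2 h (backgrounds 0.00835%, 0.376% and 1.03%). Each interaction subtracts the difference without LPS by which the 161 genes were chosen, so nothing is read from these counts. *Rn45s* differed by 3.28 without LPS and by -1.49 and -1.40 at 1 and 2 h. *Vcam1* differed by 2.20 without LPS and by 1.81, 0.25 and 0.10 at the successive times, and *Fscn1*, an actin-bundling protein, by 1.36, 0.93, 0.08 and -1.67, both named after their values were seen. Among genes with little difference before LPS, *Il1b* differed by -0.81 at 0.5 h and -1.18 at 1 h. As with the libraries without LPS, the inhibitor and the experiment coincide at each of these times.

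**Figure D4:**
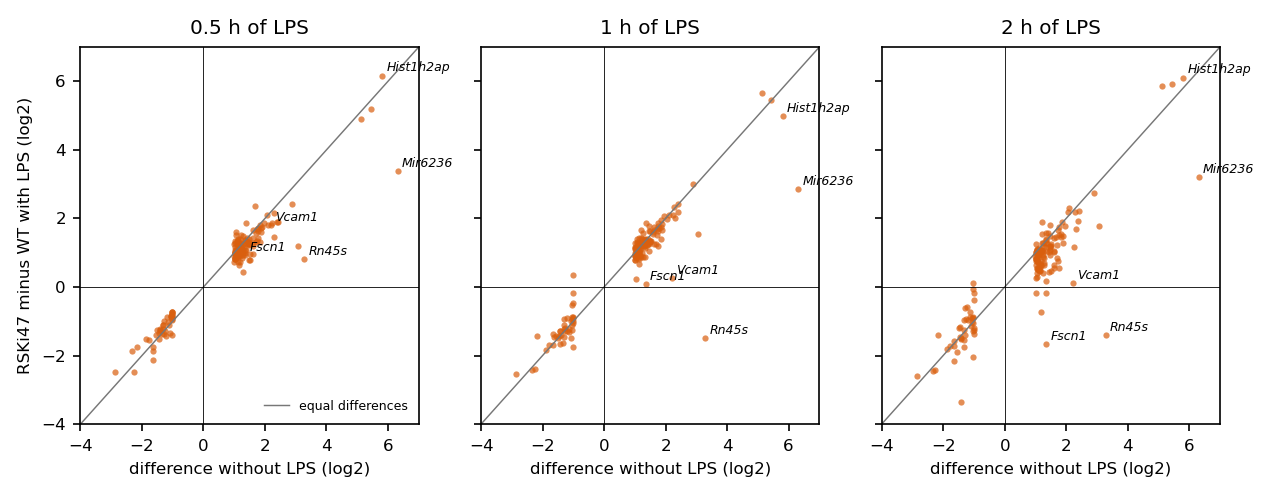
For the 161 genes called without LPS, the difference between RSKi47-treated and untreated cells without LPS (horizontal, log2) against that after 0.5, 1 and 2 h of LPS (vertical, log2), each from other libraries. The line marks equal differences. Most genes lie near it, while *Mir6236* and *Rn45s* fall below it at each time and *Vcam1* and *Fscn1* at 1 and 2 h.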

How the data were processed

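The authors' deposited file holds 1 log2 value per gene and library, normalized across libraries, for 18098 genes. The submitters' processing notes name STAR 2.5.1b, RSEM 1.2.29, DESeq2 1.10.1 and mm10, and the sources used here do not give the transformation. A value of over 25 (1 value, outside the libraries compared) was treated as missing. Genes that reached 10 on the linear scale in 3 or more libraries were tested with limma 3.58.1 (R 4.3.3), as 1 mean per group over all libraries of the series, with Benjamini-Hochberg adjustment over 11971 genes. The script was tested on simulated data. Named were the 12 called genes with the largest rise and the 12 with the largest fall whose groups did not overlap, called members of the lists, and 24 set pathway, early and macrophage genes. The members and lists were chosen with earlier results of these data known. Positions of named genes are from RefSeq (GRCm38.p6), which matched 11472 of the tested genes by symbol and 462 by synonym, and copies, lengths, shared stretches and positions given with printed gene and pseudogene sequences from GENCODE vM21 (GRCm38). Alternatives were other scalings, filters, thresholds, control libraries and leaving out each library.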

Additional observations from a re-analysis of the deposited data

Results flagged for a closer look

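Of 132 groups of named genes examined (RSKi47 and untreated values of 66 genes), 7 had a library far from the others of its group, where chance gives about 1 in 20. RSKi47 replicate 4 stood apart in *Col1a1* (9.03), *Oas3* (11.99) and *Bhlhe40* (10.34). Among untreated libraries, replicate 7 stood apart in *Rn45s* (15.78) and *Cd5l* (14.11), and replicate 9 in *Ctgf* (3.02) and *Rps6ka4* (10.67). Without replicate 4, *Col1a1*, *Oas3* and *Bhlhe40* differed by 1.90, 1.32 and 1.09 and were still called.

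For some named genes the difference between RSKi47-treated and untreated cells changed with LPS by the test of the interaction (limma, adjusted p below 0.05 and a change of at least 1). *Mir6236* changed by -2.94 at 0.5 h, -3.46 at 1 h and -3.12 at 2 h, *Rn45s* by -4.78 at 1 h and -4.69 at 2 h, and *Col1a1* by -1.51 and -1.29. The changes of *Col1a1* subtract a difference without LPS of 3.06, which was 1.90 without RSKi47 replicate 4. The interaction was not tested without that library. *Il1b* changed by -1.21 at 1 h. At 2 h *Itgal* changed by -1.09, *Dusp1* by -1.11 and *Egr3* by 1.54. The RSKi47 libraries of all times are from the other experiment than the untreated ones. Each change subtracts the difference without LPS, by which the called genes were chosen.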

How the results depend on the processing

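The count of 161 genes (42 of them lower) became 428 (305, 123) at a threshold of the natural logarithm of 2 (0.693) and 6350 (3205, 3145) on the adjusted p alone. The other fits, including only the 10 libraries compared, limma-trend, other filters, median centring and quantile normalization, gave 140 to 190 genes. Leaving out each library in turn gave 143 to 181 genes, of which 32 to 47 were lower. With the DMSO libraries as the control, *Ifit2* (-0.39), *Ltf* (-0.36) and *Ngp* (-0.21) had the opposite sign, and the cause was not tested. Of the 42 named genes that were called, 28 were called in the same direction with that control, 32 against untreated replicates 4 to 6, 40 against replicates 7 to 9, and 38 without RSKi47 replicate 4. Leaving out untreated replicate 9 kept 36 and untreated replicate 7 kept 38, while other scalings cost none of them its call. *Postn* was not tested where the minimum was required in 4 of the 10 libraries compared, and the other 41 kept their calls there. No paired analysis was possible because the groups share only replicate number 4. The planned change of pseudocount was not run, since the values are deposited on a log scale. The depth of each single library is unknown, and the solvent, the inhibitor and the experiment cannot be told apart.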
